A study of Homo sapiens with 8 samples.

Results

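The APOBEC3 genes encode a family of cytidine deaminases, and their messenger RNA was examined in HaCaT keratinocytes under psoriasis-like cytokine stimulation. All 7 human paralogs, APOBEC3A, APOBEC3B, APOBEC3C, APOBEC3D, APOBEC3F, APOBEC3G and APOBEC3H, were taken by gene identifier from a table of 17131 genes. The family was selected on the fold change of APOBEC3A between the groups, which was already known in these data, so the differences of the 7 genes between the groups are given as a description, without a test. Of the 7 genes, 4 had enough reads to enter the fit across all 12434 tested genes (APOBEC3A, APOBEC3B, APOBEC3C and APOBEC3F), and 3 did not (APOBEC3D, APOBEC3G and APOBEC3H).

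RNA sequencing was performed on 8 libraries of HaCaT cells, a spontaneously immortalised human keratinocyte line of wild type genotype. Both groups were cultured in M5, a cocktail of IL-17A, IL-22, IL-1α, TNF-α and oncostatin M that imitates the cytokine environment of psoriatic epidermis, and the design contrasts cultures with and without OTS514, an inhibitor of the mitotic kinase TOPK (gene PBK), with a treatment time of 24 h in the design text. The 4 libraries titled M5_O5 and the 4 titled M5 carry contradictory labels: the titles read as M5 with OTS514 for M5_O5, whereas the treatment field enters the inhibitor for the libraries titled M5 and no treatment for those titled M5_O5. Every direction below is therefore a direction between titles, M5_O5 relative to M5, and not a direction of the inhibitor. No culture without M5 was analysed here, so what the cytokines did to these genes was not measured. The cells are 1 immortalised line, and no source states that the libraries came from separate cultures. The p-values given for other genes set the group difference against the spread between these libraries. They need not hold for separate cultures. One M5 library, replicate 1, stood apart from the other 3 in the G2/M genes (mean log2(CPM + 1) of 3.32 against 2.43 to 2.51). Some of the values it moved are also given without it.

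APOBEC3 enzymes convert cytosine to uracil in single-stranded DNA, and some act on RNA. They restrict retroviruses and mobile elements, and APOBEC3A and APOBEC3B are the members most often linked to cytosine mutations in tumours. Each catalytic domain holds a zinc-coordinating motif of 1 histidine, a glutamate and a pair of cysteines, and the genes lie side by side on chromosome 22, having arisen by repeated duplication. In keratinocytes, APOBEC3A is known as an inducible member, whereas APOBEC3B is known to follow proliferation through the E2F and MYBL2 programme as well as NF-κB.

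The sequence around the zinc motif is printed for the 4 genes that were measurable, because paralogs share it to the base and reads from it can belong to more than 1 gene. The reference transcripts of APOBEC3A, APOBEC3C and APOBEC3H hold 1 such motif, and those of APOBEC3B, APOBEC3D, APOBEC3F and APOBEC3G hold 2. The windows run 5′ to 3′ on the plus strand from the histidine codon to the last cysteine codon, with the histidine, glutamate and both cysteine codons in capitals. Each lies within 1 coding exon in GENCODE v29 on GRCh38. They stand at chr22:38961420-38961530 for APOBEC3A, chr22:38985833-38985937 and chr22:38991365-38991475 for the first and second motif of APOBEC3B, chr22:39017787-39017891 for APOBEC3C, and chr22:39044962-39045066 and chr22:39052095-39052199 for the first and second motif of APOBEC3F.
APOBEC3A: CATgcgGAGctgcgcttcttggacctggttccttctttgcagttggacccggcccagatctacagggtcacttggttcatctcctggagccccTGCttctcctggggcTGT
APOBEC3B, second motif: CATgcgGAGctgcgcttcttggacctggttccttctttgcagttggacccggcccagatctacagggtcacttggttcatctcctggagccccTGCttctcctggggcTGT
APOBEC3B, first motif: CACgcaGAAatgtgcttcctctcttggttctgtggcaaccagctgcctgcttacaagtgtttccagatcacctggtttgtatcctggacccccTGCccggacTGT
APOBEC3F, first motif: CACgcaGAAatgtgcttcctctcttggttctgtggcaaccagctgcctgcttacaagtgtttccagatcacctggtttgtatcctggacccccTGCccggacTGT
APOBEC3C: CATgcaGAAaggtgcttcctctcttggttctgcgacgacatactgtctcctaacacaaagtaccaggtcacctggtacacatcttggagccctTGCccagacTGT
APOBEC3F, second motif: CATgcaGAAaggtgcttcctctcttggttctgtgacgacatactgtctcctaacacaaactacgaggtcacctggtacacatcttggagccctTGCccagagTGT

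The APOBEC3A window and the second APOBEC3B window were the same in all 111 bases. The first motifs of APOBEC3B and APOBEC3F were likewise the same in all 105 bases. The APOBEC3C window differed from the second APOBEC3F window at 4 of 105 bases (C33T, G60C, C64G and C102G, with the APOBEC3C base first and positions counted from 1 at the first base of the window). Over the coding sequence, APOBEC3A and APOBEC3B were 94.6% identical across 574 aligned bases, and APOBEC3C and APOBEC3F were 90.4% identical across 560 aligned bases.

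A read that falls wholly within a stretch shared by 2 transcripts cannot be assigned to 1 of them by its sequence, so the shared stretches were counted between the reference transcripts. Of all 100-base stretches of the APOBEC3A transcript, 12.9% also occurred in APOBEC3B, and the longest run that both shared was 196 bases. Of the APOBEC3B transcript, 21.3% of 100-base stretches occurred in at least 1 other member, against 13.5% for APOBEC3F and 0% for APOBEC3C. With 50-base stretches these shares were 35.9% for APOBEC3B, 24.0% for APOBEC3F and 1.16% for APOBEC3C, and 19.9% of the APOBEC3A stretches occurred in APOBEC3B. The APOBEC3A_B hybrid transcript, described below, was not among the transcripts compared. It holds the APOBEC3A coding region, so these shares understate how much APOBEC3A sequence is shared. The read length is not given in the sources used here. APOBEC3C was thus the expressed member with the least sequence in common with its paralogs over such lengths, whereas the counts of APOBEC3A, APOBEC3B and APOBEC3F rest partly on how the authors' software divided ambiguous reads and are uncertain to that extent.

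**Figure D1:**
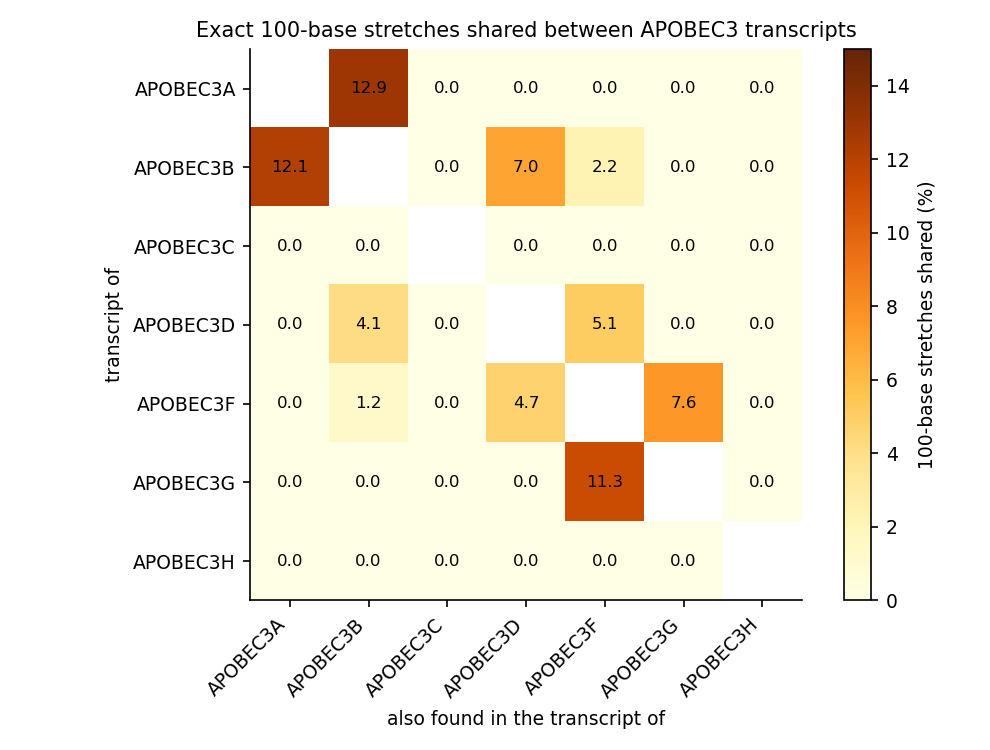
Share (%) of exact 100-base stretches in the reference transcript of each APOBEC3 gene (rows) that also occur in the transcript of another (columns). APOBEC3A shared 12.9% with APOBEC3B and 0% with the other 5 genes, and APOBEC3C shared 0% with every other member.

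The 7 genes differed widely in level. In TPM, a scale that corrects for transcript length and therefore allows levels to be compared between genes, APOBEC3C was highest at 17.5 ± 0.448 (SD, n = 4) in M5_O5 and 15.5 ± 1.31 in M5. APOBEC3B followed at 9.63 ± 0.796 and 11.5 ± 0.720 TPM, and APOBEC3F at 8.78 ± 1.14 and 6.56 ± 0.738 TPM. Across the libraries, APOBEC3C stood above both in every library, while the ranges of APOBEC3B (8.76 to 12.4 TPM) and APOBEC3F (5.67 to 10.2 TPM) overlapped. That overlap rests on few reads. The APOBEC3F isoform NM_001006666 had 3.82 to 12.7 counts per library but made up 21.7% to 50.4% of the gene's TPM. APOBEC3A stood far below these at 0.748 ± 0.135 TPM in M5_O5 and 2.77 ± 0.502 TPM in M5. APOBEC3D, APOBEC3H and APOBEC3G had group means between 0.04 and 0.28 TPM, and their order could not be told apart at this depth.

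APOBEC3A, a single-domain deaminase, differed most. Its level was 0.349, 0.517, 0.415 and 0.535 CPM in M5_O5 replicates 1 to 4, and 2.12, 1.63, 1.78 and 2.06 CPM in M5 replicates 1 to 4, where CPM is the count relative to the library total, scaled between libraries by the trimmed mean of M values (TMM) and is compared within a gene only. All 4 M5_O5 libraries lay below all 4 M5 libraries. The means were 0.454 ± 0.0878 and 1.90 ± 0.229 CPM, and the fitted log2 fold change of M5_O5 over M5 was −2.04 ± 0.24 (SE), or 0.243 of the M5 level. These values rest on few reads, with estimated counts of 6.45 to 9.42 in M5_O5 and 25.3 to 33.3 in M5. Fewer cells that express the gene and less RNA per cell cannot be told apart in such bulk libraries.

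The table also lists APOBEC3A_B, the hybrid transcript of a common germline deletion allele that joins the APOBEC3A coding region to the end of APOBEC3B. It received 2.99, 0.94, 0 and 0 estimated counts in the M5_O5 libraries and 0, 7.08, 3.98 and 0 in the M5 libraries. The M5 libraries in which the hybrid had counts were those in which APOBEC3A itself was lowest. In M5_O5 the hybrid had counts in replicate 1, where APOBEC3A was lowest, and in replicate 2, where it was not (0.349 and 0.517 CPM). With both rows summed, the level was 0.523, 0.574, 0.415 and 0.535 CPM in M5_O5 and 2.12, 2.09, 2.04 and 2.06 CPM in M5. The SD within M5 was then 0.0344 CPM, against 0.229 CPM for APOBEC3A alone, and the log2 fold change was −2.002 ± 0.212. This sum was added after seeing the data and rests on 29.2 to 33.3 counts per M5 library, so nothing is read from the smaller SD. Whether the hybrid counts are reads of APOBEC3A or of a hybrid allele was not tested. With APOBEC3A, APOBEC3B and the hybrid all summed, a quantity that does not depend on how reads were divided among the 3, the log2 fold change was −0.56 ± 0.09.

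APOBEC3B, the member with 2 domains of which the second matches APOBEC3A, was lower in M5_O5 by a smaller amount. Its level was 7.79, 7.06, 7.29 and 7.78 CPM in M5_O5 replicates 1 to 4, and 9.64, 10.1, 9.35 and 9.78 CPM in M5 replicates 1 to 4. The groups did not overlap, and the log2 fold change was −0.38 ± 0.09, or 0.770 of the M5 level. The count ratio of APOBEC3B to APOBEC3A was 16.3 ± 3.51 in M5_O5 and 5.16 ± 0.722 in M5. Each M5_O5 library had a higher ratio (13.1 to 20.8) than every M5 library (4.52 to 6.12). APOBEC3A, on which the family was chosen, is the denominator, and the division of shared reads between the 2 genes is uncertain. No conclusion is drawn from this ratio.

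APOBEC3C, the single-domain member with the highest level, was nearly the same in both groups. Its level was 24.4, 25.2, 25.2 and 25.1 CPM in M5_O5 replicates 1 to 4 and 24.7, 24.5, 24.2 and 23.1 CPM in M5 replicates 1 to 4. The groups overlapped, and the log2 fold change was 0.05 ± 0.06.

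APOBEC3F, a 2-domain member known for restricting retroviruses, was the only tested member with a higher level in M5_O5 in every library. Its level was 15.6, 14.02, 13.99 and 15.2 CPM in M5_O5 replicates 1 to 4 and 11.3, 11.1, 12.3 and 12.3 CPM in M5 replicates 1 to 4. The log2 fold change was 0.32 ± 0.08, or 1.25 times the M5 level. APOBEC3F and APOBEC3C share 81 bases at most in an unbroken run, and their count ratio differed too, with APOBEC3C at 1.70 ± 0.121 times APOBEC3F in M5_O5 and 2.06 ± 0.163 times in M5.

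The 3 other members were close to the detection limit. APOBEC3D, a 2-domain member, had 4.02 to 9.04 estimated counts in M5_O5 and 3 to 7.12 in M5, and its levels overlapped (0.352 ± 0.129 and 0.386 ± 0.133 CPM). APOBEC3G, known for strong restriction of HIV lacking its Vif protein, had 0, 1, 1 and 0 counts in M5_O5 and 1, 1, 2 and 3 counts in M5. APOBEC3H, the most divergent paralog, had 0, 1, 1 and 1 counts in M5_O5 and 1, 0, 1 and 0 in M5. No library exceeded 3 counts for APOBEC3G or APOBEC3H, so no fold is given, and a difference was not detectable at this depth.

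**Figure D2:**
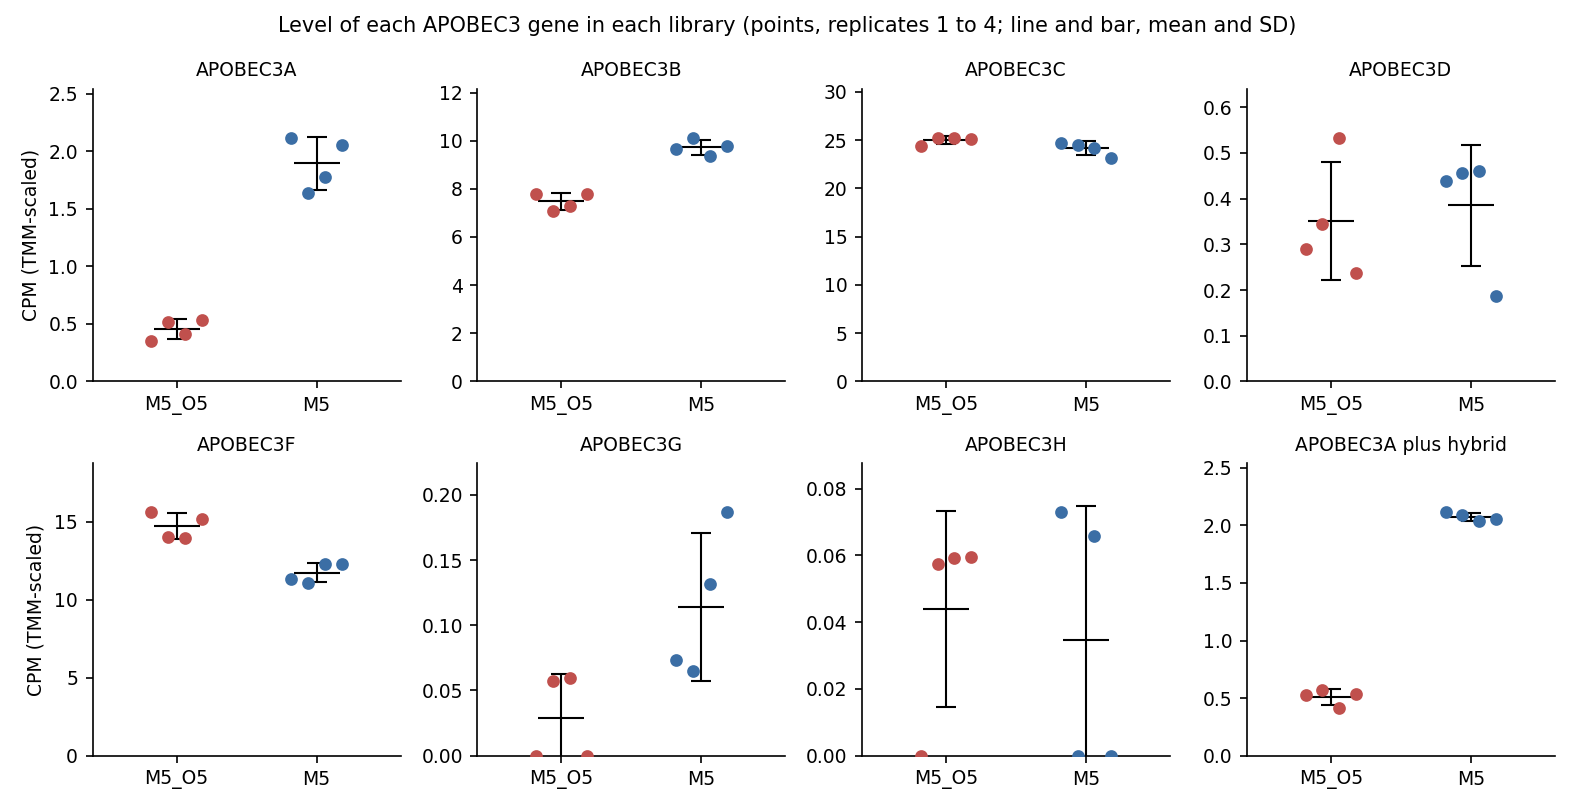
CPM after TMM scaling (vertical axis, from 0, one scale per panel) of each APOBEC3 gene, and of APOBEC3A with the hybrid transcript added, in the 4 M5_O5 and 4 M5 libraries; points are libraries and bars are the mean and SD. The groups are apart for APOBEC3A (with and without the hybrid), APOBEC3B and APOBEC3F, and overlap for APOBEC3C (25.0 ± 0.419 and 24.1 ± 0.719 CPM) and APOBEC3D. APOBEC3G is also apart in CPM, but on 0 to 3 counts per library, and its counts overlap.

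Of the 4 tested members, 1 (APOBEC3A) passed an adjusted p of 0.05 with at least a 2-fold difference in the edgeR fit, where 3.2% of all tested genes did so in either direction and 0.33% were lower in M5_O5. APOBEC3A had rank 3 among all tested genes from the most negative log2 fold change, which is what the choice of the family rests on. Without the fold threshold, 1 member was higher, where 19.5% of all tested genes were, and 2 were lower, where 17.6% were. The 2 groups did not overlap in CPM for 3 of the 4, against 33.6% of all tested genes. Nothing about the family is read from these counts.

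Across other scalings, filters and tools and with each library left out, the sign of each of the 4 log2 fold changes stayed the same. APOBEC3A ranged from −2.13 to −1.10, APOBEC3B from −0.40 to −0.23, APOBEC3C from 0.03 to 0.17 and APOBEC3F from 0.29 to 0.44. Without M5 replicate 1 the values were −1.99, −0.38, 0.06 and 0.31 in this order. The smallest APOBEC3A value came from log2(TPM + 1), where the added 1 is large beside its level, and the value was −1.76 with an added 0.1.

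**Figure D3:**
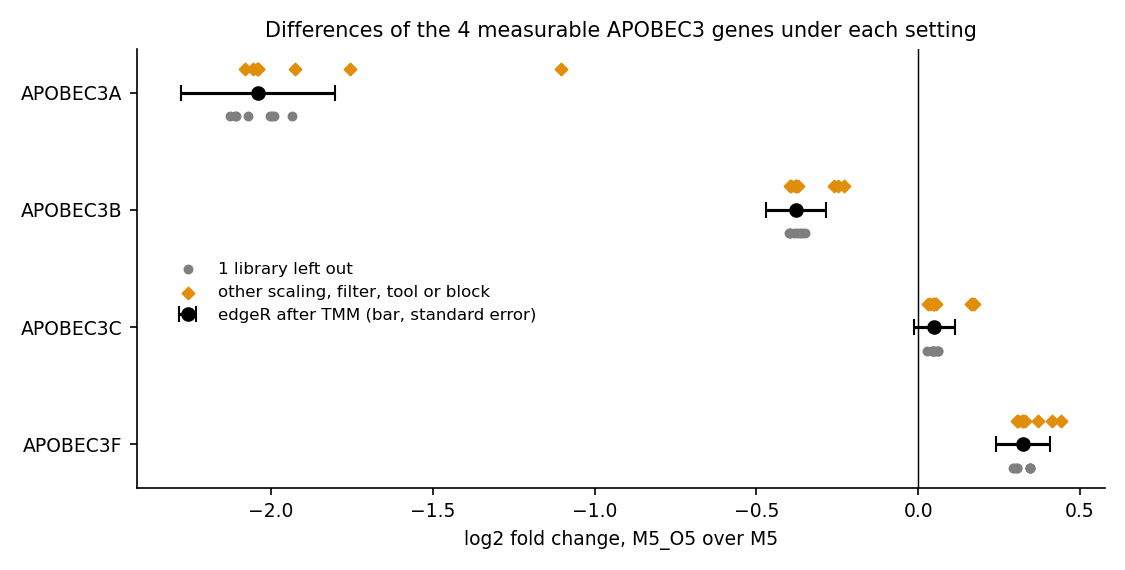
Log2 fold change of M5_O5 over M5 (horizontal axis) for the 4 tested APOBEC3 genes. The black point with its SE is the edgeR value after TMM scaling, grey points leave out 1 library each, and orange diamonds use another scaling, filter, tool or the replicate block; APOBEC3A stays between −2.13 and −1.10.

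The make-up of the family's RNA differed although its sum was nearly the same. Summed over the 7 genes, the level was 48.1 ± 0.761 CPM in M5_O5 and 48.0 ± 0.376 CPM in M5, and in TPM it was 37.1 ± 2.12 and 36.9 ± 2.86. Scaled by library size alone, the sum was 50.01 ± 1.27 CPM in M5_O5 and 46.1 ± 1.55 in M5, without overlap, so the likeness of the sums depends on the scaling. The shares within the family do not depend on it. APOBEC3A took 2.01 ± 0.360% of the family's TPM in M5_O5 and 7.49 ± 1.04% in M5, and APOBEC3B took 25.9 ± 0.994% and 31.1 ± 1.14%. APOBEC3C took 47.1 ± 1.52% and 42.1 ± 0.798%, and APOBEC3F 23.6 ± 1.75% and 17.8 ± 1.78%. For each of these 4 genes the groups did not overlap in share. The shares add up to a whole, so lower shares of APOBEC3A and APOBEC3B raise those of APOBEC3C and APOBEC3F. In CPM and in TPM the groups overlapped for APOBEC3C. The family was chosen on APOBEC3A, so no conclusion is drawn from the lack of overlap in share. The APOBEC3F share, and through it the others, rests in part on the few counts of NM_001006666 given above.

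**Figure D4:**
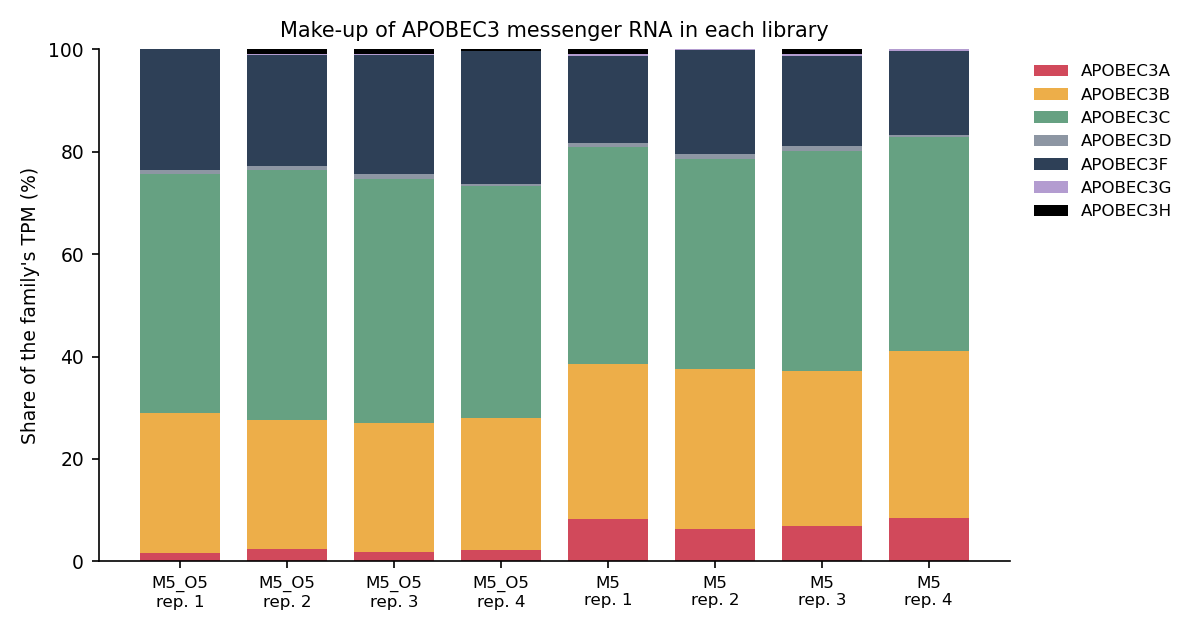
Share (%) of the summed TPM of the 7 APOBEC3 genes taken by each gene in each library. APOBEC3A and APOBEC3B together take a smaller part in the 4 M5_O5 libraries than in the 4 M5 libraries, and APOBEC3C takes the largest part in all 8.

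The transcript rows showed which isoforms carried the counts, a measure that the choice of the family did not use. Of the 22 rows of the family, APOBEC3B counts all lay on NM_004900, and the other APOBEC3B row, NM_001270411, had 0 counts in every library. APOBEC3C lay to 95.8% on NM_014508. APOBEC3A had 141 counts in all on NM_145699 and 5.78 on NM_001270406. Only APOBEC3F met the limits set for a test of isoform use. Its main transcript NM_145298 took 75.4 ± 7.55% of its counts in M5_O5 and 70.0 ± 2.23% in M5 (n = 4 each), a difference of 5.45 percentage points that did not pass the test (two-sided exact permutation test, p = 0.2, where the smallest p that 4 against 4 allows is 0.0286). The difference was 9.15 points without M5_O5 replicate 4 (exact permutation test, p = 0.0571, the smallest that 3 against 4 allows) and 3.61 points without M5_O5 replicate 2 (exact permutation test, p = 0.4). By TPM the shares were 50.1 ± 8.46% and 45.6 ± 7.24% (exact permutation test, p = 0.457, n = 4).

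Genes near the family on chromosome 22 were compared between the same libraries. The order of the genes is CBX6, APOBEC3A, APOBEC3B, APOBEC3C, APOBEC3D, APOBEC3F, APOBEC3G, APOBEC3H and CBX7. Of 13 listed neighbours, 11 were tested, 0 were higher and 5 lower at an adjusted p under 0.05, where 19.5% of all tested genes were higher and 17.6% lower. Their median log2 fold change was −0.17, against 0.01 over all tested genes. With library size only, or in limma on log2(TPM + 1) or log2(TPM + 0.1), 2 were higher and 2 lower, and 1 was higher with the replicate block and without M5_O5 replicate 1 or 4. CBX6, a Polycomb chromobox gene beside APOBEC3A, was at 27.1 ± 3.01 CPM in M5_O5 and 31.6 ± 1.39 CPM in M5 (log2 fold change −0.22 ± 0.08, adjusted p = 0.0441), and the call was lost when any 1 library other than M5_O5 replicate 1 was left out. CBX7, its paralog at the other end, gave −0.19 ± 0.14 (adjusted p = 0.299). The largest neighbour difference was PDGFB, a growth factor subunit gene beyond CBX7, at −0.89 ± 0.10 (adjusted p = 2.1e-05), and GTPBP1, a gene for a GTP-binding protein, gave −0.34 ± 0.08 (adjusted p = 0.0034). Leaving out any 1 library brought the lower count from 5 to 3 or 4. It was 3 in 5 of 8 cases, namely without M5_O5 replicate 3 or 4 or M5 replicate 2, 3 or 4.

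Factors known to act on transcription of APOBEC3 genes moved in both directions. Of 29 genes, 6 were higher and 13 lower in M5_O5, with a median of −0.19, where 19.5% of all tested genes were higher and 17.6% lower. MYBL2, a transcription factor that acts with the MuvB complex, rose from 2.13 ± 0.987 CPM in M5 to 9.16 ± 1.53 CPM in M5_O5 (log2 fold change 2.12 ± 0.22, adjusted p = 1.1e-05). With 1 library left out, the log2 fold change of MYBL2 ranged from 1.93 to 2.44. E2F1, a cell cycle activator, rose from 0.692 ± 0.125 to 2.16 ± 0.759 CPM (1.62 ± 0.30, adjusted p = 0.00098). It had only 8 to 46 counts per library, and its log2 fold change ranged from 0.77 to 1.84 over the alternative runs. APOBEC3B was lower in the same libraries, as given above. The part of these or the other listed factors in the APOBEC3 values was not tested. RELA, the p65 subunit of NF-κB, was lower at 171 ± 12.6 CPM in M5_O5 against 232 ± 25.0 CPM in M5 (−0.43 ± 0.08, adjusted p = 0.00066). Without M5 replicate 3 the count of higher factors fell from 6 to 3.

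Since several APOBEC3 genes are interferon-inducible, the interferon response was counted as well. Of 29 tested genes, 8 were higher and 6 lower, with a median of 0.10, where 19.5% of all tested genes were higher and 17.6% lower. IFIT2, an antiviral RNA-binding gene, rose from 64.7 ± 7.82 to 195 ± 17.9 CPM (1.596 ± 0.086, adjusted p = 4.5e-08), and its relative IFIT3 from 97.6 ± 6.53 to 199 ± 15.2 CPM (1.03 ± 0.07, adjusted p = 2.4e-07). The count of higher genes was 5 without M5_O5 replicate 2, M5 replicate 2 or M5 replicate 3.

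Other restriction factors of retroviruses and mobile elements were counted in the same way. Of 24 tested genes, 4 were higher and 4 lower, none by 2-fold, with a median of −0.06. Over all tested genes 19.5% were higher and 17.6% lower, so nothing about this list is read from its counts. SLFN11, which limits viral protein synthesis, rose from 12.1 ± 1.36 to 21.9 ± 3.66 CPM (0.85 ± 0.12, adjusted p = 8.8e-05). SAMHD1, which depletes the deoxynucleotide pool, rose from 38.0 ± 3.67 to 53.5 ± 1.34 CPM (0.49 ± 0.07, adjusted p = 0.0001).

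The enzymes that deal with the product of APOBEC3 activity were followed through the repair list. Of 23 tested genes of uracil and abasic site repair, 9 were higher and 3 lower, with a median of 0.15. The shares over all tested genes were 19.5% higher and 17.6% lower. POLQ, the polymerase of microhomology-mediated end joining, rose from 1.83 ± 0.701 to 4.01 ± 0.0625 CPM (1.14 ± 0.21, adjusted p = 0.00079). With 1 library left out, the log2 fold change of POLQ ranged from 0.962 to 1.37. UNG, the main uracil DNA glycosylase, was at 17.4 ± 0.447 CPM in M5_O5 and 15.3 ± 0.416 CPM in M5 (0.19 ± 0.07, adjusted p = 0.0471), a call lost when any 1 of the 8 libraries was left out. SMUG1, a second uracil glycosylase, gave −0.14 ± 0.08 (adjusted p = 0.195).

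Among relatives outside the APOBEC3 cluster, 8 of 13 listed genes were tested, with 2 higher, 1 lower and a median of −0.05. The shares over all tested genes were 19.5% higher and 17.6% lower. ADAT2, a transfer RNA deaminase subunit, rose from 5.21 ± 1.11 to 9.25 ± 0.432 CPM (0.84 ± 0.13, adjusted p = 0.00028), and CDADC1, a deoxycytidine deaminase, from 4.48 ± 0.640 to 6.38 ± 0.437 CPM (0.51 ± 0.13, adjusted p = 0.0066). ADAR, the adenosine deaminase of double-stranded RNA, and CDA, the free cytidine deaminase, gave −0.05 ± 0.06 (adjusted p = 0.543) and −0.11 ± 0.08 (adjusted p = 0.252), with signs that turned under scaling by library size alone.

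The counts in these lists depended on the scaling. With library size alone, which moved the median of all tested genes to 0.13, the lower genes numbered 6 of the transcription factors, 1 of the restriction factors, 2 of the neighbours and 0 of both the repair genes and the deaminase relatives. The higher genes then numbered 7 of the restriction factors, against 4, and 2 of the neighbours, against 0.

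**Figure D5:**
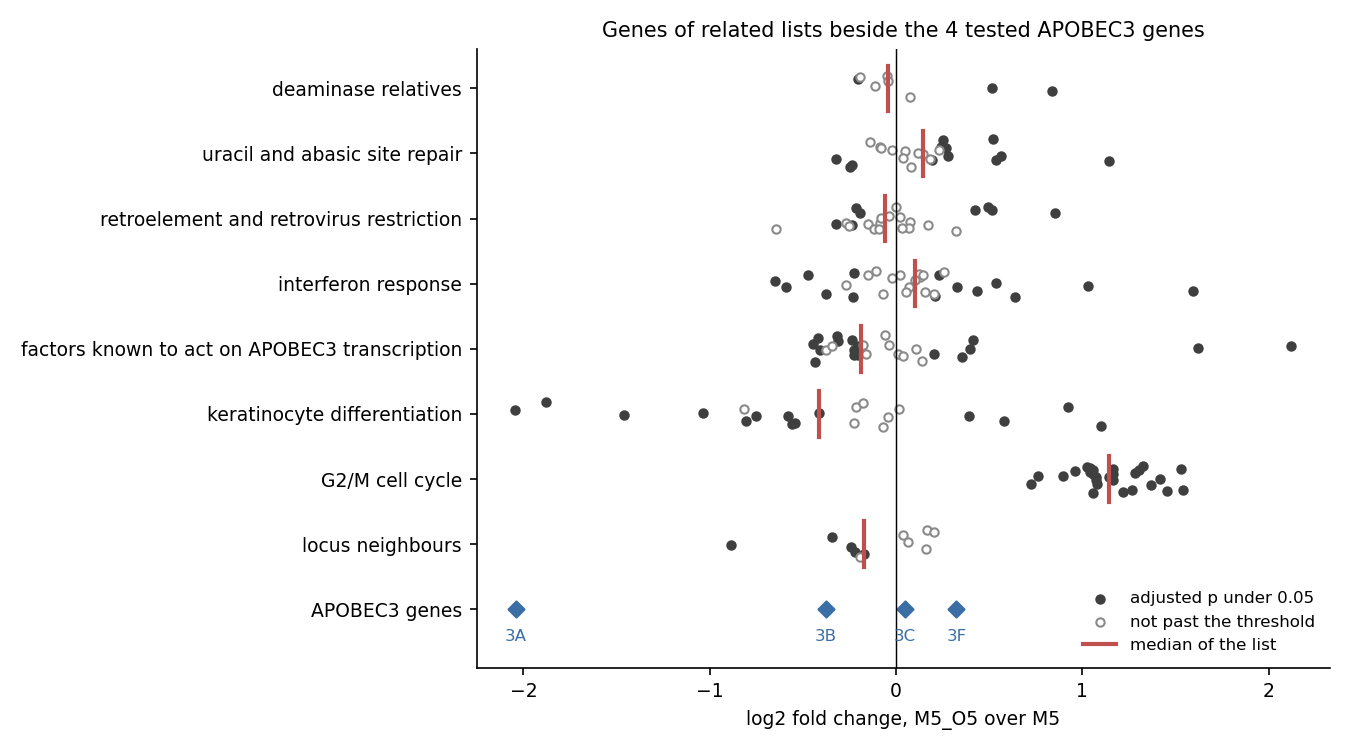
Log2 fold change of M5_O5 over M5 (horizontal axis) of each tested gene in 8 related gene lists, with filled points at an adjusted p under 0.05 and red bars at each list's median, and of the 4 tested APOBEC3 genes (blue diamonds, 3A to 3F for APOBEC3A to APOBEC3F). The G2/M list lies wholly to the right of 0 with a median of 1.14, and APOBEC3A lies at −2.04, beside the lowest genes of the differentiation list.

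Cell cycle and differentiation genes moved between the same libraries, and their part in the APOBEC3 values was not tested. All 27 genes of the G2/M list were higher in M5_O5, where 19.5% of all tested genes were. Of these 27, 23 were higher by at least 2-fold, and the median was 1.14. DLGAP5, a spindle gene, gave 1.54 ± 0.24 (adjusted p = 0.00023), BIRC5, which encodes survivin, 1.53 ± 0.24 (adjusted p = 0.00029), TTK, a spindle checkpoint kinase, 1.45 ± 0.21 (adjusted p = 0.00016) and PLK1, a mitotic kinase, 1.42 ± 0.18 (adjusted p = 3.9e-05). PBK, the gene of TOPK itself, was at 2.98 ± 0.563 CPM in M5_O5 and 1.22 ± 0.953 CPM in M5 (1.32 ± 0.34, adjusted p = 0.0074). Without M5 replicate 1, all 27 genes of the list were again higher, and the log2 fold changes were 1.99 for DLGAP5, 1.93 for BIRC5, 1.82 for TTK, 1.64 for PLK1 and 1.98 for PBK. Of 21 tested differentiation genes, 4 were higher and 10 lower, with a median of −0.42, where 19.5% of all tested genes were higher and 17.6% lower. KRT1, an early differentiation keratin, fell from 52.2 ± 44.7 to 12.6 ± 2.69 CPM (−2.04 ± 0.43, adjusted p = 0.0023), and without M5 replicate 1, where it stood at 117 CPM, the value was −1.28. KRT4 and KRT13, keratins of internal epithelia, gave −1.88 ± 0.50 (adjusted p = 0.0091) and −1.46 ± 0.38 (adjusted p = 0.0076), and −1.05 and −0.76 without M5 replicate 1, with both calls lost in limma on log2(TPM + 1), while KRT80, a keratin of differentiating cells, gave 1.10 ± 0.11 (adjusted p = 9.1e-06).

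Markers of other cells were checked because blood cells also express APOBEC3 genes. All 12 keratinocyte markers were present, with a summed level of 23020 to 25710 CPM in M5_O5 and 27374 to 32720 CPM in M5. Of 12 lymphocyte markers 5 were in the table, none averaged 1 CPM, and their sum was 0.230 to 0.238 CPM in M5_O5 and 0.311 to 0.653 CPM in M5. Of 12 myeloid markers 11 were in the table, with sums of 226 to 243 CPM in M5_O5 and 275 to 323 CPM in M5. Only 3 of them averaged at least 1 CPM (CD14, CD68 and S100A12). PTPRC, AIF1 and MNDA had 0 counts in every library, FCER1G had at most 1 count, and CSF1R, ITGAM, LYZ and CD163 stayed under 1 CPM. Fibroblast markers summed to 33.1 to 36.6 CPM in M5_O5 and 43.1 to 58.4 CPM in M5. COL1A1 made up most of that sum, at 32.8 ± 2.11 CPM in M5_O5 and 48.8 ± 6.01 CPM in M5. Of the other fibroblast markers, only PDGFRA averaged at least 1 CPM. COL1A2 and COL3A1 were at 0 CPM in every M5_O5 library and averaged 0.482 and 0.278 CPM in M5. Endothelial and melanocyte markers summed to 2.31 to 3.14 CPM in M5_O5 and 1.74 to 2.35 CPM in M5. The part of these genes in the APOBEC3 values was not tested.

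The genes whose pattern over the 8 libraries came nearest to a member were sought among the 11967 tested genes averaging 1 CPM or more, by the root mean square (RMS) difference of mean-centred log2 CPM. For APOBEC3A, whose own RMS deviation was 0.921, they were MMP10 (RMS difference 0.291) and MMP9 (0.295), both matrix metalloproteinase genes, and BMP6 (0.351), a growth factor gene. MMP10 stood at 369 ± 45.6 CPM in M5_O5 and 1067 ± 188 CPM in M5, and MMP9 at 29.98 ± 2.198 and 118 ± 21.6 CPM. For APOBEC3B, with an RMS deviation of 0.193, they were CHERP (0.0354), a calcium homeostasis gene, ABCA5 (0.0357), a transporter gene, and GLUL (0.0361), which encodes glutamine synthetase. GLUL was at 292 ± 8.68 CPM in M5_O5 and 375 ± 4.08 CPM in M5. The group difference makes up most of each pattern, and for APOBEC3A it is what the family was chosen on. Genes with a like log2 fold change therefore come nearest by design, and no likeness beyond that is read from this list.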

How the data were processed

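Per the study's methods, the authors used HISAT2 for mapping and StringTie for counting, whereas the submitters' processing notes name HISAT2 2.1.0, Bowtie2 2.2.5 and RSEM 1.2.8 and a mouse build, although the table lists human genes. The files' build is thus not settled, and all coordinates given are positions of sequences in GENCODE v29 on GRCh38. Libraries were prepared from total RNA with a SMARTER mRNA-Seq kit. The authors deposited estimated counts per transcript, which were not normalized, and 53.8% of these values were fractional. The authors also deposited TPM, which corrects for transcript length and gives every library the same sum, and the deposited FPKM values, which were not analysed further, divide by length and library size.

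The transcript rows (86639) were summed per Entrez gene, rounded for the fit, and named through a RefSeq table of GRCh38.p14, which matched 17072 of 17131 genes. Library totals ran from 13708055 to 16922693 counts, and a level resting on 3 counts is uncertain in every library. All pairs of libraries within a group differed by more than sampling noise (mean chi-square per gene of 2.02 to 16.5), so none was taken for a copy of another library, which does not show that they came from separate cultures. Genes were filtered with filterByExpr, scaled by TMM and fitted with edgeR 4.0.16 in R 4.3.3 by the quasi-likelihood test over the 8 libraries, with groups by title and no covariate. P-values were adjusted by the Benjamini-Hochberg method over 12434 genes, and calls required an adjusted p under 0.05 with a difference of 2-fold or more. CPM values come from the rounded counts. Isoform shares were compared with an exact permutation test for genes with at least 20 counts in every library and a main transcript at 5% to 95%. Alternatives were DESeq2 1.42.0, limma 3.58.1 on log2(TPM + 1) or log2(TPM + 0.1), other scalings and filters, a replicate block, and each library left out. The fit was tested on simulated data.

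The members and the gene lists were chosen with earlier results of these data known. The genes named were the members, the hybrid transcript, up to 4 called genes of each list with the largest change (or, with none called, the 2 with the smallest adjusted p), the fixed genes UNG, SMUG1, SAMHD1, CDA, ADAR, RELA, PBK, MYBL2, CBX6 and CBX7, and the 3 genes nearest in pattern to APOBEC3A and to APOBEC3B. A gene that this rule also fixed is not reported here.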

Additional observations from a re-analysis of the deposited data

Results flagged for a closer look

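In each group of 4 libraries, the highest and lowest value of every gene named and of every list mean were compared with the others by Dixon's criterion. Of 100 groups checked, 13 held a library that stood apart, where chance at 1 in 20 would give about 5.

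Among the APOBEC3 genes, APOBEC3D was at 0.187 CPM in M5 replicate 4, against 0.438 to 0.461 CPM in the other M5 libraries, a difference of a few counts. APOBEC3H was at 0 CPM in M5_O5 replicate 1, against 0.0574 to 0.0594 CPM in the others, which is the difference between 0 and 1 count. No library stood apart for APOBEC3A, APOBEC3B, APOBEC3C, APOBEC3F or APOBEC3G.

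M5 replicate 1 stood apart in 5 of the other values. Its G2/M genes averaged 3.32 on the log2(CPM + 1) scale, whereas the remaining M5 libraries lay at 2.43 to 2.51. TTK was at 4.16 CPM there against 1.71 to 1.96, and SAMHD1 at 43.5 CPM against 35.7 to 36.6. PDGFB was at 33.1 CPM there against 39.9 to 40.8, and MMP10 at 786 CPM against 1142 to 1175.

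M5_O5 replicate 1 stood apart in 4 of them. Its interferon genes averaged 4.90 on the log2(CPM + 1) scale, whereas the remaining M5_O5 libraries lay at 5.09 to 5.12. SLFN11 was at 27.4 CPM there against 19.9 to 20.3, PDGFB at 16.4 CPM against 21.9 to 22.8, and CBX6 at 31.6 CPM against 25.6 to 25.7.

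Beyond these, ADAT2 was at 9.90 CPM in M5_O5 replicate 3 against 8.96 to 9.09 in the others. SAMHD1 was at 55.5 CPM in M5_O5 replicate 4 against 52.5 to 53.0 in the others.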

How the results depend on the processing

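No log2 fold change of APOBEC3A, APOBEC3B, APOBEC3C or APOBEC3F changed direction under any alternative run. The edgeR fit called 357 genes higher and 41 lower, and with 1 library left out it called 334 to 465 and 41 to 52. With log2(TPM + 1) these were 144 and 8, with log2(TPM + 0.1) 18 were lower, with library size only 25, with no count filter 71, and with no fold threshold 2421 and 2192. Of the members, 1 was called, 0 when 10 counts were required in each library, since APOBEC3A was then not tested, and 3 with no fold threshold. Over all related lists the lower genes numbered 22 with library size only and 17 with either form of log2(TPM). Of all genes at an adjusted p under 0.05, 52.5% were higher, against 79.3% with library size only, 81.1% and 81.0% with log2(TPM + 1) and log2(TPM + 0.1), and 46.1% with DESeq2. The median over all genes was 0.13 with library size only, 0.12 with log2(TPM + 1) and 0.13 with log2(TPM + 0.1), beside which APOBEC3C reached 0.17 under these scalings. The cause of these shifts was not tested.

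CDA turned to 0.00203 with library size only and to 0.00609 and 0.00611 with log2(TPM + 1) and log2(TPM + 0.1). ADAR turned to 0.0655, 0.0757 and 0.0764 under the same scalings, and with 1 library left out it ranged from −0.0831 to 0.0012 (the latter without M5_O5 replicate 1). None of these passed the threshold.

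Replicate numbers are shared by the groups, but same-numbered libraries deviated together only weakly (correlations of 0.0182 to 0.241), and 3 of 8 libraries correlated best with their own number, so the numbers were not taken as a pairing. With the replicate block, 359 genes were higher and 41 lower, and the log2 fold change of APOBEC3A was −2.04. Depth limits APOBEC3A to counts under 34, and APOBEC3D, APOBEC3G and APOBEC3H to no test. APOBEC3A with the hybrid summed was added after seeing the data.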
